A study of Mus musculus with 18 samples.

Results

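The nucleus accumbens of mice labelled Rgs9-2KO was compared after spared nerve injury with saline injections and in naive mice of the same label. A gene was included where the test status of the authors' deposited table was OK and its level was at least 1 FPKM (a read count scaled to transcript length and library size) in both groups, which 13981 of 37980 genes met. Of the other genes, 3222 were tested at a lower level, 20431 had too few reads for a test, 331 lay in loci that are complex or thinly covered, 12 had too many reads and 3 failed. At the edge of that minimum, March10 (1.40 FPKM injured, 1 naive) and Il1rapl2 (1.001 injured, 1.03 naive) were included, while Klk8 (1.14 injured, 0.999 naive) and Six5 (0.999 injured, 1.10 naive) were not.

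Spared nerve injury is an operation on branches of the sciatic nerve that leaves rodents with lasting pain behaviour, and the study asked how RGS9-2 bears on gene regulation in the accumbens under such pain and an antidepressant. The injured group held 3 samples from mice labelled knockout that were operated on and received saline into the abdomen 2 times a day, and the naive group held 3 samples from mice labelled knockout with no operation and no injection given in the labels. All mice were of C57BL/6 background, and age, sex and the time since surgery are not given in the labels. Mice labelled Rgs9-2WT, injured with saline or naive, and injured mice labelled knockout given desipramine (15 mg per kg, 2 times a day) serve below to set these values in context, with 3 samples a group of the 18 in all. Injury and injection came together, so their parts cannot be told apart, and each group filled 1 sequencing lane (0 of 6 lanes were shared), which cannot be told apart from the group either. Each gene has 1 pooled FPKM value per group in the authors' deposited tables. The spread between the 3 samples is therefore not seen directly, the sequencing depth is unknown here, and ± marks the standard error of a log2 ratio as Cuffdiff's test statistic implies it.

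The nucleus accumbens is the ventral part of the striatum and takes part in reward, motivation and the affective side of pain. Most of its neurons are medium spiny neurons, which release GABA and fall into a direct pathway class with D1 dopamine receptors and an indirect pathway class with D2 dopamine and adenosine receptors. Interneurons, glia, ependyma of the nearby ventricle and blood vessels make up the rest of the tissue, and RGS9-2 is a striatal protein that speeds the switching off of G proteins downstream of opioid and dopamine receptors.

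A small set of genes differed between injured and naive mice. Of the 13981 genes, 71 passed Cuffdiff's test at a q of 0.05 or less (0.508%), 43 higher in the injured group (0.308%) and 28 lower (0.2%), with q between 0.0128 and 0.0436 in the authors' deposited table. Those higher in the injured group included 4 of 12 cortical marker genes, Ngfr, Gnrh1 and Pvalb, and those lower included 3 of 9 indirect pathway neuron genes, 2 of 10 smooth muscle genes and the galanin gene Gal. The genes called higher were mostly of low or middle level, with a median of 8.73 FPKM injured and 4.65 naive. Those called lower had medians of 20.7 FPKM injured and 35.9 naive. Protein-coding genes made up 66 of the 71. With genes below the level minimum 79 of 17203 tested genes were called (0.459%).

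Over all 13981 genes, the called ones included, most levels were close between the groups. The median log2 ratio of injured over naive was 0.0026, 86.4% of genes lay within 1.2-fold, and the 5th and 95th percentiles were -0.30 and 0.32. The ratio was above 1 for 50.7% of genes and below 1 for 49.3%. Past 1.5-fold lay 306 genes (2.19%), 166 higher (1.19%) and 140 lower (1%). At an unadjusted p under 0.05 in the authors' deposited table stood 576 genes (4.12%), of which 294 were higher (2.1%) and 282 lower (2.02%). The summed level was 532825 FPKM injured and 530629 naive.

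**Figure D1:**
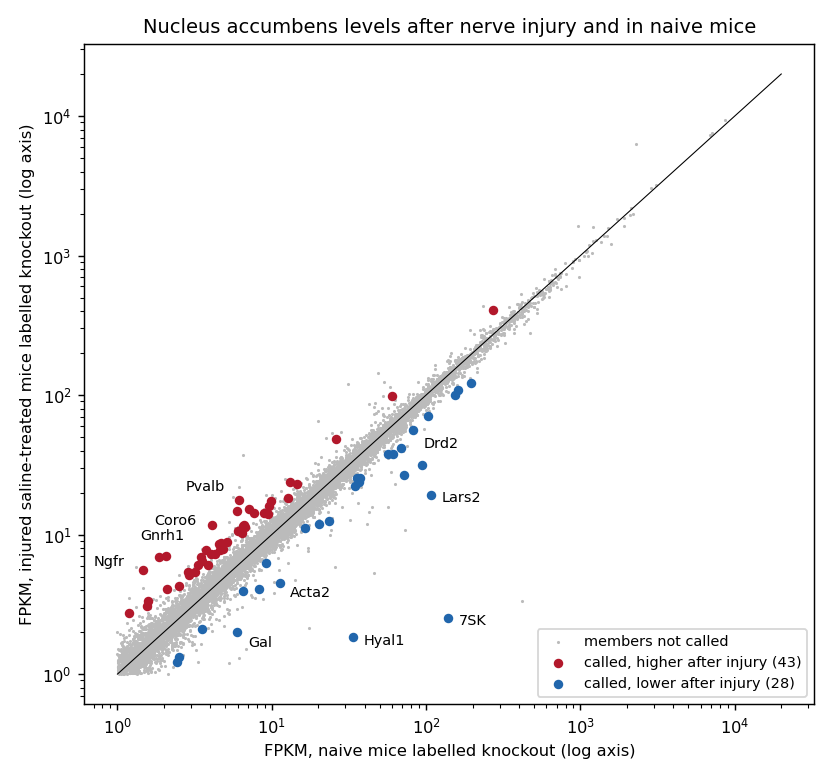
FPKM of each of the 13981 genes in injured, saline-treated mice labelled knockout (vertical, log axis) against naive mice labelled knockout (horizontal, log axis), 1 pooled value per group. Red points are the 43 genes called higher after injury, blue points the 28 called lower, and most grey points lie along the line of equal levels.

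Cuffdiff's deposited p and its test statistic give different sets of calls. A normal p from the statistic, adjusted over the tested genes, calls 59 genes, of which 14 are among the 71 and 39 have a deposited p above 0.05. Restricted to genes whose error could be recovered, it calls 17, of which 11 are among the 71. That restriction drops genes where a normal p under 0.0001 met a deposited p over 0.05. A closer match to the deposited calls was thus built into it. These 11 are Ngfr, Gnrh1, Pvalb, Coro6, Stxbp2 and A830036E02Rik on the higher side and 7SK, Hyal1, Lars2, Acta2 and RP23-381B19.7.1 on the lower side. Gal, Vamp1 and Gm11942 pass with a normal p only where all tested genes enter, and the other calls below rest on the deposited p alone.

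Rgs9 itself (ENSMUSG00000020599, chromosome 11, 109086669 to 109159443 in mm9) was at 175 FPKM in injured and 219 FPKM in naive mice labelled knockout, a log2 ratio of -0.32 ± 0.26 that missed the test with a q of 0.903 in the authors' deposited table. In mice labelled wild type its level was lower in both groups, 103 FPKM injured and 123 FPKM naive. The targeted gene thus goes against the genotype label, so the groups are called labelled knockout throughout. The 1 value per gene takes in reads from any exon left in place and does not show the deleted part. None of the 7 measured genes of the R7 RGS family and its partners passed the test, and their median log2 ratio was -0.21. Among 12 other RGS genes, 0 passed and 3 were lower at an unadjusted p under 0.05, namely Rgs4 (107 FPKM injured, 135 naive), Rgs10 (59.4 injured, 73.6 naive) and Rgs14 (32.3 injured, 41.6 naive).

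Indirect pathway neuron genes were lower in the injured group. Of 9 measured, 3 fell and 0 rose, 8 had negative ratios, and the median log2 ratio was -0.30 against 0.0026 over all genes. Drd2, the D2 dopamine receptor gene (chromosome 9, 49148732 to 49216282 in mm9), was at 56.2 FPKM in injured and 82.0 FPKM in naive mice, a log2 ratio of -0.55 ± 0.24. Adora2a, an adenosine receptor gene (chromosome 10, 74779688 to 74797533), was at 70.5 FPKM injured and 103 FPKM naive (-0.54 ± 0.22). Gpr6, an orphan receptor gene that marks the same neurons (chromosome 10, 40789795 to 40792091), was at 37.6 FPKM injured and 57.0 FPKM naive (-0.60 ± 0.20). All 3 receptor genes were thus between 1.45-fold and 1.52-fold higher in naive mice. Penk, the enkephalin precursor gene, was at 1209.5 FPKM injured and 1572 FPKM naive (-0.38 ± 0.29) and was not called. In bulk tissue, fewer cells of a type and less RNA per cell cannot be told apart.

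Genes shared by all medium spiny neurons leaned the same way. All 20 measured had negative ratios, 2 fell, 13 were lower at an unadjusted p under 0.05, and the median log2 ratio was -0.39. Scn4b, a sodium channel beta subunit gene (chromosome 9, 44946520 to 44962235), was at 122 FPKM injured and 194 FPKM naive (-0.67 ± 0.28). Rasd2, the striatal small GTPase Rhes (chromosome 8, 77737843 to 77748012), was at 108 FPKM injured and 162 FPKM naive (-0.58 ± 0.26). These 2 passed the test. Ppp1r1b, which encodes the phosphatase inhibitor DARPP-32, was at 707 FPKM injured and 972 FPKM naive (-0.46 ± 0.38) without passing. The smallest difference of the list was that of the transcription factor gene Foxp2, at 14.2 FPKM injured and 15.8 naive. Both groups thus carried the defining striatal genes at high levels.

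Direct pathway genes had a smaller median difference than indirect pathway genes, with 3 lower at an unadjusted p under 0.05 in either list. Of 11 measured, 0 passed the test, 7 had negative ratios and the median log2 ratio was -0.16. Drd1a, the D1 dopamine receptor gene, was at 54.7 FPKM injured and 70.5 FPKM naive (-0.37 ± 0.22), and Pdyn, the dynorphin precursor gene, was at 118 FPKM injured and 157 naive (-0.42 ± 0.27). Both stood at an unadjusted p under 0.05, as did Slc35d3, a nucleotide sugar transporter gene, with 15.0 FPKM injured and 20.2 naive. Whether the 2 classes of medium spiny neuron genes differ in their response was not tested.

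Several further genes called lower belong to no list. Lrrc10b (37.6 FPKM injured, 61.0 naive, log2 ratio -0.70 ± 0.19), Tmem90a (42.0 injured, 68.5 naive, -0.70 ± 0.21) and the orphan receptor gene Gpr27 (11.9 injured, 20.1 naive, -0.76 ± 0.22) fell beside them. Tmem158 (99.6 injured, 154 naive), Lingo3 (23.7 injured, 36.5 naive), Prr7 (25.6 injured, 37.1 naive) and the acid-sensing channel family gene Accn4 (25.3 injured, 35.4 naive) were also called lower, as were Mesdc1, Dach1, Dmkn, Coch and Cdhr1. Coch, which encodes the extracellular protein cochlin, was at 4.10 FPKM injured and 8.24 FPKM naive (-1.01 ± 0.31).

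**Figure D2:**
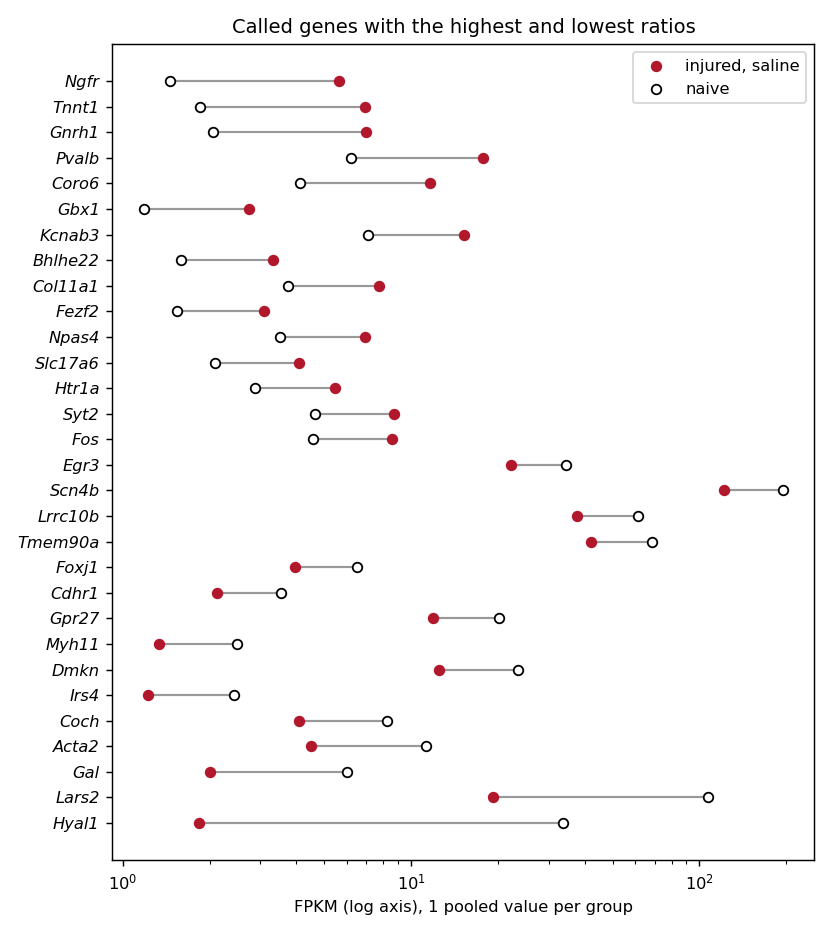
FPKM (log axis) of 30 called genes, 15 at either end of the log2 ratios, without predicted genes, pseudogenes and small RNAs, in injured, saline-treated (filled red) and naive (open) mice labelled knockout, 1 pooled value per group. Hyal1 has the widest gap on the lower side (1.83 injured, 33.7 naive) and Ngfr the widest on the higher side (5.62 injured, 1.45 naive).

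On the higher side Ngfr had the largest ratio among called genes above the level minimum. Ngfr encodes the p75 receptor for neurotrophins, which basal forebrain cholinergic neurons carry (chromosome 11, 95430132 to 95449049), and was at 5.62 FPKM in injured and 1.45 FPKM in naive mice, a log2 ratio of 1.95 ± 0.34. It was the only called gene among 24 measured genes of MAPK and growth factor signalling, whose median log2 ratio was -0.02. Gnrh1, the precursor of gonadotropin-releasing hormone, which scattered septal and preoptic neurons make (chromosome 14, 68363286 to 68367492), was at 6.97 FPKM injured and 2.05 FPKM naive (1.77 ± 0.34). Tnnt1, a slow skeletal troponin T gene (chromosome 7, 4456172 to 4467984), was at 6.92 FPKM injured and 1.85 FPKM naive (1.90 ± 0.61). Gbx1, a homeobox gene of the ventral forebrain, was at 2.75 FPKM injured and 1.19 FPKM naive (1.21 ± 0.36). All 4 were at least 2.31-fold higher in injured mice.

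Several called genes are known from fast-firing neurons. A list of 22 such genes was put together after the values were seen, so its count is a description: 9 rose, 0 fell, 21 had positive ratios and the median log2 ratio was 0.53. Pvalb, the calcium buffer parvalbumin of basket-type interneurons (chromosome 15, 78021544 to 78036830), was at 17.7 FPKM injured and 6.17 FPKM naive (1.52 ± 0.36). Coro6, a coronin gene, was at 11.7 FPKM injured and 4.12 FPKM naive (1.504 ± 0.35). Pvalb was 2.87-fold and Coro6 2.84-fold higher in injured mice. Kcnab3, a potassium channel beta subunit gene, was at 15.3 FPKM injured and 7.07 FPKM naive (1.11 ± 0.32), and Kcnc2, a channel gene of the Kv3 family that lets neurons repolarize fast, was at 8.92 injured and 5.11 naive (0.80 ± 0.22). Scn1a, the sodium channel gene of many inhibitory neurons, was at 18.4 FPKM injured and 12.8 FPKM naive (0.52 ± 0.23). Nefh, the heavy neurofilament gene of thick axons, was at 14.3 FPKM injured and 8.85 naive, and Hapln4, a perineuronal net link protein gene, at 11.2 injured and 6.72 naive. The 5 genes Kcnab3, Kcnc2, Scn1a, Nefh and Hapln4 all passed Cuffdiff's test but not that on the recovered error.

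The same list holds 2 genes of synaptic release that rose. Vamp1, a vesicle SNARE gene, was at 48.3 FPKM injured and 26.1 FPKM naive (0.89 ± 0.23). Syt2, a fast calcium sensor gene, was at 8.73 FPKM injured and 4.65 FPKM naive (0.91 ± 0.24). They were the 2 genes called of 31 measured synaptic vesicle genes, where 0 were called lower, 12 had negative ratios and the median log2 ratio was 0.06. The other channels and fibres of the fast-firing list that did not pass spread between -0.12 (Kcna1, 22.3 FPKM injured, 24.2 naive) and 0.89 (the neurofilament gene Nefm, 48.4 injured, 26.1 naive, ± 0.54).

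Among 16 measured genes of striatal interneurons Pvalb was the 1 that passed, and the median log2 ratio was 0.11. Of the 16, 10 had positive and 6 had negative ratios. At an unadjusted p under 0.05, 6 were higher and 0 lower. They included Vip, a peptide gene (5.30 FPKM injured, 3.02 naive), Lhx6, a transcription factor gene of interneurons (13.4 injured, 9.63 naive), and the cholinergic genes Chat (10.3 injured, 8.01 naive) and Slc5a7 (9.74 injured, 7.69 naive).

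Cortical excitatory neuron genes were higher in the injured group. All 12 measured had positive ratios, 4 rose, 10 were higher at an unadjusted p under 0.05 and the median log2 ratio was 0.68. Fezf2, a transcription factor gene of deep-layer projection neurons, was at 3.08 FPKM injured and 1.54 FPKM naive (0.996 ± 0.38). Bhlhe22, another transcription factor gene, was at 3.32 FPKM injured and 1.59 naive (1.07 ± 0.36). Slc30a3, which loads zinc into synaptic vesicles, was at 7.21 FPKM injured and 4.07 naive, and Nrn1, an activity-dependent growth factor gene, at 16.0 injured and 9.65 naive. These 4 stayed between 3.08 and 16.0 FPKM in injured mice. Slc17a7, the vesicular glutamate transporter gene that defines these neurons, was at 80.5 FPKM injured and 51.9 FPKM naive (0.63 ± 0.31) and did not pass (q = 0.234 in the authors' deposited table). The summed level of the list was 140.5 FPKM injured and 89.7 FPKM naive, none of its 12 genes was at 0, and the part that cortical tissue in the dissection plays in any of the genes higher after injury was not tested.

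Genes of the hypothalamus, septum and pallidum went both ways. Of 15 measured, 1 rose and 2 fell, with a median log2 ratio of -0.10 and summed levels of 557 FPKM injured and 631 FPKM naive. Slc17a6, the vesicular glutamate transporter gene of subcortical neurons, rose, at 4.09 FPKM injured and 2.09 FPKM naive (0.97 ± 0.29). Gal, the galanin precursor gene (chromosome 19, 3409919 to 3414472), fell, at 2.00 FPKM injured and 5.97 FPKM naive (-1.58 ± 0.40). Irs4, an insulin receptor substrate gene of the hypothalamus, fell, at 1.23 FPKM injured and 2.43 FPKM naive (-0.99 ± 0.33). Trh (3.54 FPKM injured, 4.92 naive), Gabrq (2.48 injured, 3.62 naive) and Calcr (1.90 injured, 2.65 naive) lay lower at an unadjusted p under 0.05. Nts, the neurotensin gene, lay the other way without passing, at 27.6 injured and 24.4 naive.

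Oxt, the oxytocin gene (chromosome 2, 130401909 to 130402790), lay outside the level minimum with the largest difference of any gene called there. It was at 0.517 FPKM in injured and 43.3 FPKM in naive mice (-6.39 ± 0.44), which passed Cuffdiff's test. A pooled value cannot show how many of the 3 naive samples carried it. The hypothalamic genes Sim1 and Otp, which mark neurons of the paraventricular region, were at 0.00281 and 0.0211 FPKM injured and at 0.0168 and 0.111 FPKM naive, too low for a test. The part of tissue from outside the accumbens in the Oxt and Gal differences was not tested. Of 20 measured neuropeptide genes, Gal was the 1 that passed.

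Another 7 genes under the level minimum were called, all higher in injured mice. Myoc, the myocilin gene of the meningeal list, was at 4.48 FPKM injured and 0.601 naive (2.90 ± 0.50), and Adcyap1, the PACAP peptide gene, was at 2.37 injured and 0.916 naive (1.37 ± 0.41). The rest were Flt3 (1.38 injured, 0.755 naive), Avpr1a (0.886 injured, 0.360 naive), Krt20 (0.685 injured, 0.210 naive), Chrna2 (0.473 injured, 0.181 naive) and 2610028E06Rik (1.97 injured, 0.556 naive).

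**Figure D3:**
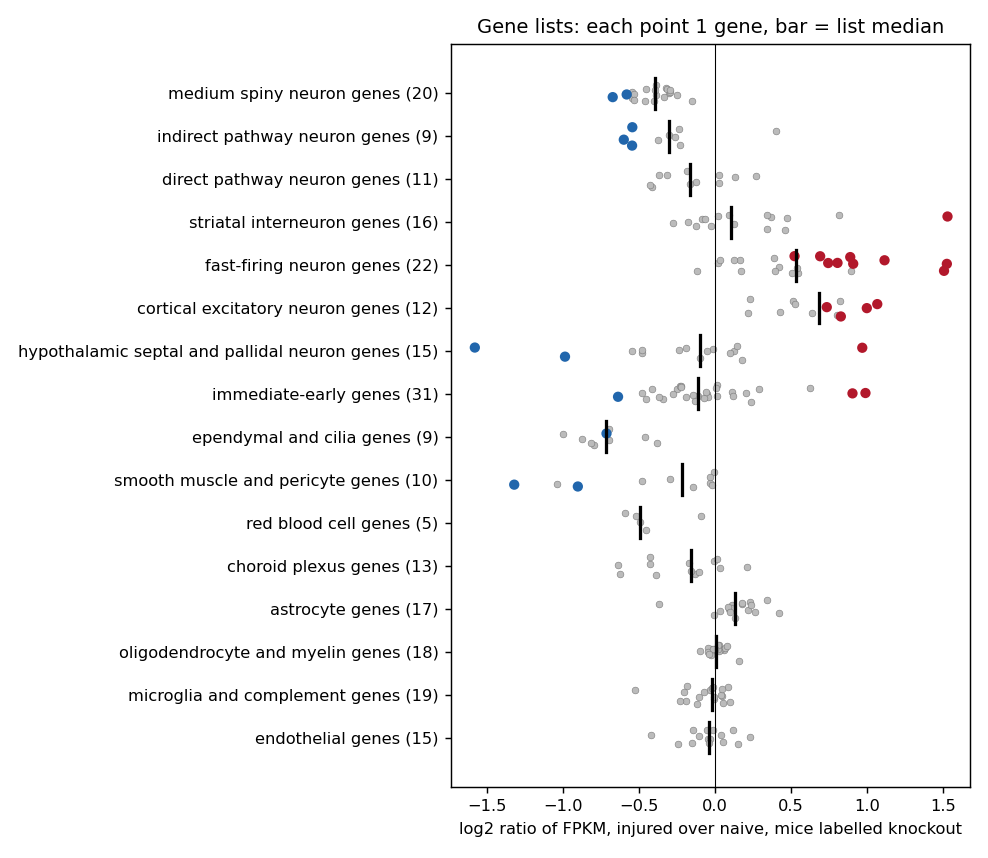
Log2 ratio of FPKM, injured over naive, in mice labelled knockout (horizontal) for the genes of 16 lists, each point 1 gene, black bars the list medians, red and blue points the genes called higher and lower, and the number of genes in parentheses. All 20 medium spiny neuron genes and all 9 ependymal genes lie below 0, all 12 cortical genes lie above 0, and oligodendrocyte, microglia and endothelial genes cluster at 0. The fast-firing list was put together after its values were seen.

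Ependymal cells line the ventricle and beat motile cilia. All 9 measured ependymal and cilia genes had negative ratios, 1 fell, 6 were lower at an unadjusted p under 0.05, and the median log2 ratio was -0.72. Foxj1, the master transcription factor gene of motile cilia (chromosome 11, 116192018 to 116196713), fell, at 3.94 FPKM injured and 6.49 FPKM naive (-0.72 ± 0.30). Dynlrb2 (3.68 injured, 7.37 naive), Ccdc153 (3.84 injured, 6.68 naive) and Tmem212 (2.93 injured, 5.17 naive) had the next lowest p but did not pass. The list summed to 40.2 FPKM injured and 66.3 naive.

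All 10 measured smooth muscle and pericyte genes had negative ratios and 2 fell, with a median log2 ratio of -0.22. Acta2, the smooth muscle actin gene (chromosome 19, 34315580 to 34329826), was at 4.50 FPKM injured and 11.2 FPKM naive (-1.32 ± 0.30). Myh11, the smooth muscle myosin gene, was at 1.33 FPKM injured and 2.49 FPKM naive (-0.90 ± 0.35). The list summed to 96.9 FPKM injured and 122.8 naive. Of 5 measured red blood cell genes, 0 passed and 5 had negative ratios, with a median of -0.49 and haemoglobin genes such as Hbb-b1 at 47.4 FPKM injured and 64.9 naive. Reads of the near-identical haemoglobin copies could be split between them, so their single values are uncertain. Of 15 endothelial genes 0 passed, with a median of -0.04. How much vessels or blood in the samples bear on other genes was not tested.

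The remaining non-neuronal lists held no called gene above the level minimum. They were choroid plexus (13 measured, median log2 ratio -0.16, Ttr 579 FPKM injured and 635 naive), meninges (10, -0.08), oligodendrocytes (18, 0.01), their precursors (10, 0.10), astrocytes (17, 0.13), and microglia and complement (19, -0.02). Of the astrocyte genes 15 had positive ratios, with Agt (11.5 FPKM injured, 9.09 naive) the 1 at an unadjusted p under 0.05. Among 11 measured cytokine and chemokine genes 0 passed, and Cxcl14, a chemokine gene of interneurons, came nearest at 63.8 FPKM injured and 46.9 naive (0.44 ± 0.23, q = 0.109 in the authors' deposited table). Ptgds, the prostaglandin D synthase gene of meninges and oligodendrocytes, belongs to no list and was called higher, at 408 FPKM injured and 270.0 naive (0.60 ± 0.27).

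Immediate-early genes, which neurons switch on within minutes of strong activity, split. Of 31 measured, 2 rose and 1 fell, 11 had positive and 20 negative ratios, and the median log2 ratio was -0.11. Fos, which encodes part of the AP-1 transcription factor (chromosome 12, 86814840 to 86818223), was at 8.55 FPKM injured and 4.57 FPKM naive (0.90 ± 0.37). Npas4, a neuron-specific transcription factor gene driven by calcium entry (chromosome 19, 4984355 to 4989971), was at 6.94 FPKM injured and 3.50 FPKM naive (0.99 ± 0.29). Egr3, a zinc finger transcription factor gene (chromosome 14, 70477252 to 70479964), went the other way, at 22.1 FPKM injured and 34.4 FPKM naive (-0.64 ± 0.25). Btg2 (6.25 FPKM injured, 4.06 naive) lay with Fos and Npas4 without passing, while Homer1 (44.4 injured, 60.8 naive), Nr4a3 (3.14 injured, 4.20 naive) and Nptx2 (12.4 injured, 15.9 naive) lay with Egr3. Arc (25.6 injured, 21.8 naive), Egr1 (47.8 injured, 52.2 naive) and Junb (28.2 injured, 27.9 naive) differed by less than 1.2-fold.

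The promoters of genes called in each direction are shown because CREB, the factor that cAMP and calcium activate, binds the letters TGACGTCA or their shorter form TGACG. The windows run from 250 bases before to 50 bases after the transcription start in RefSeq (build GRCm38.p6, a later build than that of the tables), written 5′ to 3′ on the gene's strand, with TGACG or its reverse complement CGTCA in capitals. Fos is at chr12:85473640-85473939 on the plus strand, Npas4 at chr19:4989922-4990221 on the minus strand, Drd2 at chr9:49340153-49340452 on the plus strand and Gpr6 at chr10:41072241-41072540 on the minus strand.
Fos: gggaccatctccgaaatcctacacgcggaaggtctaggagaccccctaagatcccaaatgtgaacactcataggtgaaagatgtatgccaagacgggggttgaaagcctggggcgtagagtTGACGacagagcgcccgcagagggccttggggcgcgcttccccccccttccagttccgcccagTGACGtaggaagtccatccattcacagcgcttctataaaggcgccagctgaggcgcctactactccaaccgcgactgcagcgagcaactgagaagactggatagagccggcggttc
Npas4: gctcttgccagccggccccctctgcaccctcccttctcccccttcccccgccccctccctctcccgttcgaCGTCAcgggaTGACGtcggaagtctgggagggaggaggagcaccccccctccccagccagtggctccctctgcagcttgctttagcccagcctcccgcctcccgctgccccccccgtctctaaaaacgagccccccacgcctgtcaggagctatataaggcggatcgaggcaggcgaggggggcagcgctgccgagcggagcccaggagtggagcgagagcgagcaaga
Drd2: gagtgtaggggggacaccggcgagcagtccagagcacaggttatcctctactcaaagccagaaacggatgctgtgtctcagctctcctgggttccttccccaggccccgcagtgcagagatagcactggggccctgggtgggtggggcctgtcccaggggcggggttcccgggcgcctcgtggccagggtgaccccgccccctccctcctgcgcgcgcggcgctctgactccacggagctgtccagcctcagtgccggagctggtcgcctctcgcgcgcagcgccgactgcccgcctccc
Gpr6: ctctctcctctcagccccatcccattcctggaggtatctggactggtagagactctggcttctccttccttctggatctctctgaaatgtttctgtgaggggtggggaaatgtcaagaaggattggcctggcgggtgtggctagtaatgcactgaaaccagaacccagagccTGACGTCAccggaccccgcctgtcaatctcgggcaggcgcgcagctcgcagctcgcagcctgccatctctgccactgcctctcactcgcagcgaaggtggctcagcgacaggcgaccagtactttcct
The Fos window holds the short form at 129 and 66 bases before the start, and the Npas4 window at 179 and 169. The Gpr6 window holds the full TGACGTCA, in which the short form and its reverse complement overlap, with the first letters at 78 and 75 bases before the start. The Drd2 window holds none of these letters. Over all 32851 promoter windows of 27025 genes, 20.8% hold TGACG on either strand and 1.79% hold TGACGTCA. A match describes these letters only, and one is found in Fos and Npas4, which rose, and in Gpr6, which fell. The RefSeq table used here has these 4 genes, and Egr3 and Adora2a are named without a window.

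Hyal1, Lars2 and the small nuclear RNA 7SK had the lowest ratios among called genes above the level minimum. Hyal1, a hyaluronidase gene (chromosome 9, 107478151 to 107489756), was at 1.83 FPKM injured and 33.7 FPKM naive (-4.20 ± 0.41). Lars2, the mitochondrial leucyl-tRNA synthetase gene (chromosome 9, 123276058 to 123371782), was at 19.2 FPKM injured and 107 FPKM naive (-2.48 ± 0.40). 7SK, which holds back the elongation factor P-TEFb (chromosome 9, 78023110 to 78023440), was at 2.52 FPKM injured and 138 FPKM naive (-5.77 ± 0.21). Small RNAs as a class scattered far more than other genes: 58 of 97 small nucleolar RNAs and 11 of 19 small nuclear RNAs lay past 1.5-fold, against 184 of 12905 protein-coding genes (1.43%). The annotation places 7SK outside these 2 classes, among 21 miscellaneous RNAs, of which 1, 7SK itself, was called. None of the 97 small nucleolar and 19 small nuclear RNAs was called, including a U1 copy (ENSMUSG00000075736) at 3.35 FPKM injured and 415 FPKM naive (q = 0.664 in the authors' deposited table). Sequencing lane moves with the groups for these RNAs as for all genes, and cannot be told apart from injury.

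Receptor and signalling genes held few calls beside those above. Of 26 measured monoamine receptor and transporter genes, Htr1a rose and Drd2 fell, and the median log2 ratio was 0.08. Htr1a, the inhibitory serotonin receptor gene, was at 5.42 FPKM injured and 2.87 FPKM naive (0.92 ± 0.27). Adra2c, the alpha-2C adrenergic receptor gene, missed the threshold at 14.4 FPKM injured and 20.3 naive (-0.50 ± 0.21, q = 0.0607 in the authors' deposited table). Of 8 opioid genes 0 passed, with a median of -0.17, and Oprk1, the gene of the kappa receptor for dynorphin, was at 11.7 FPKM injured and 15.5 naive. Of 32 cAMP signalling genes 0 passed, 2 were higher and 6 lower at an unadjusted p under 0.05, and the median was -0.07. The 6 included the phosphodiesterase genes Pde7b (42.0 FPKM injured, 59.3 naive) and Pde10a (103 injured, 150.0 naive) and the striatal adenylyl cyclase gene Adcy5 (133 injured, 192 naive). Of 23 G protein subunit genes 0 passed, with a median of -0.05.

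In the channel and synapse lists few genes passed the test. Of 33 potassium channel genes only Kcnc2 passed, with a list median of -0.12, while 4 were higher and 7 lower at an unadjusted p under 0.05. Of 29 sodium and calcium channel genes Scn1a rose and Scn4b fell, with a median of -0.03. Of 35 glutamate receptor and scaffold genes and 13 GABA-A receptor subunit genes 0 passed. At an unadjusted p under 0.05, 4 of the 35 were higher and 4 lower, and 3 of the 13 were higher and 2 lower. Over all genes 4.12% stood at such a p. The metabotropic receptor gene Grm4, which sits on striatal terminals, was at 14.4 FPKM injured and 20.4 naive (-0.50 ± 0.25). Kcnj16, an inward rectifier gene, and Npy1r, a neuropeptide Y receptor gene, lie outside these lists and were called higher, at 6.03 and 7.86 FPKM injured and at 3.84 and 4.85 FPKM naive.

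Broad cell programmes held no call. None passed among 45 cytosolic ribosomal protein genes (median -0.11, 44 negative), 40 nuclear respiratory chain genes (0.02), 24 chaperone genes (-0.07), 19 clock genes (-0.07), 18 stress hormone response genes (-0.09) and 29 histone deacetylase and chromatin genes (0.03). Without passing, the clock genes Per2 (8.38 FPKM injured, 11.4 naive) and Npas2 (17.8 injured, 24.5 naive) were lower and the polycomb gene Cbx8 (98.1 injured, 52.2 naive, q = 0.475 in the authors' deposited table) was higher at an unadjusted p under 0.05. In all, 28 of the 71 called genes stood in at least 1 of 39 lists, 24 lists held no call, and 43 called genes stood in none. The lists held 690 measured genes, so 28 of 690 were called, beside 0.508% of all 13981. They were chosen with earlier results of these data known, and 1 is a group named after Hyal1, Lars2 and 7SK, with 3 of its 4 measured genes called. The listed share is therefore a description only. Called higher outside the lists were also the collagen gene Col11a1 (7.71 FPKM injured, 3.75 naive), the otoferlin gene Otof (6.48 injured, 3.52 naive), the retinaldehyde dehydrogenase gene Aldh1a1 (11.8 injured, 6.63 naive), the semaphorin receptor gene Nrp2 (10.2 injured, 6.43 naive), the syntaxin-binding gene Stxbp2 (98.98 injured, 60.4 naive) and the long noncoding RNA Miat (22.9 injured, 14.6 naive).

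The response of mice labelled wild type to the same injury gives a comparison that shares no sample with these groups. The difference of the log2 ratios, tested with both recovered errors over 13633 genes, passed for 18 (adjusted p of 0.05 or less, 0.132%), 13 with the more positive ratio in mice labelled knockout and 5 with the more negative. Pvalb had a log2 ratio of 1.52 ± 0.36 in mice labelled knockout and -1.26 ± 0.50 in mice labelled wild type, a difference of 2.78 ± 0.62 (adjusted p = 0.0111 from a two-sided normal test). Gal had -1.58 ± 0.40 in mice labelled knockout and 1.44 ± 0.53 in mice labelled wild type, a difference of -3.02 ± 0.66 (adjusted p = 0.0111). The cortical genes Fezf2, Slc30a3, Neurod6 and Slc17a7 differed by 2.75 to 2.82 with the more positive ratio in mice labelled knockout. Hyal1 differed by -4.60 ± 1.07 and 7SK by -4.64 ± 0.36. With the larger of the 2 errors used for both responses, 5 of the 18 remained, Alox5ap, 7SK, Cox8b, Rpsa-ps10 and Gm13306. The Pvalb, Gal, cortical and Hyal1 differences did not remain. All 18 rest on recovered errors, also those that remained. Of these, Cuffdiff called neither Alox5ap (deposited q = 0.109 labelled knockout, 0.360 labelled wild type) nor Gm13306 under either label. Pvalb, Fezf2 and Slc30a3, which did not remain, were called under both labels.

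The levels behind these differences were as follows, from tables normalized separately. Slc17a7 was at 80.5 FPKM injured and 51.9 naive in mice labelled knockout, and at 50.7 FPKM injured and 225 FPKM naive in mice labelled wild type. Pvalb was at 17.7 and 6.17 FPKM in injured and naive mice labelled knockout, and at 15.0 FPKM injured and 35.9 FPKM naive in those labelled wild type. In both cases the naive group labelled wild type was the highest of the 4 and the naive group labelled knockout was at or near the lowest. That naive group labelled wild type also stood apart in its summed level, 660678 FPKM against 521317 in its injured counterpart, and the median recovered error with it was 0.531 against 0.321 here, and no test was possible without it. Oxt went opposite ways, at 0.517 FPKM injured and 43.3 naive in mice labelled knockout, and at 5.03 injured and 0.160 naive in mice labelled wild type. Gabrq followed the same order, at 2.48 injured and 3.62 naive in mice labelled knockout and 6.77 injured and 1.43 naive in mice labelled wild type, without passing the test of the difference.

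**Figure D4:**
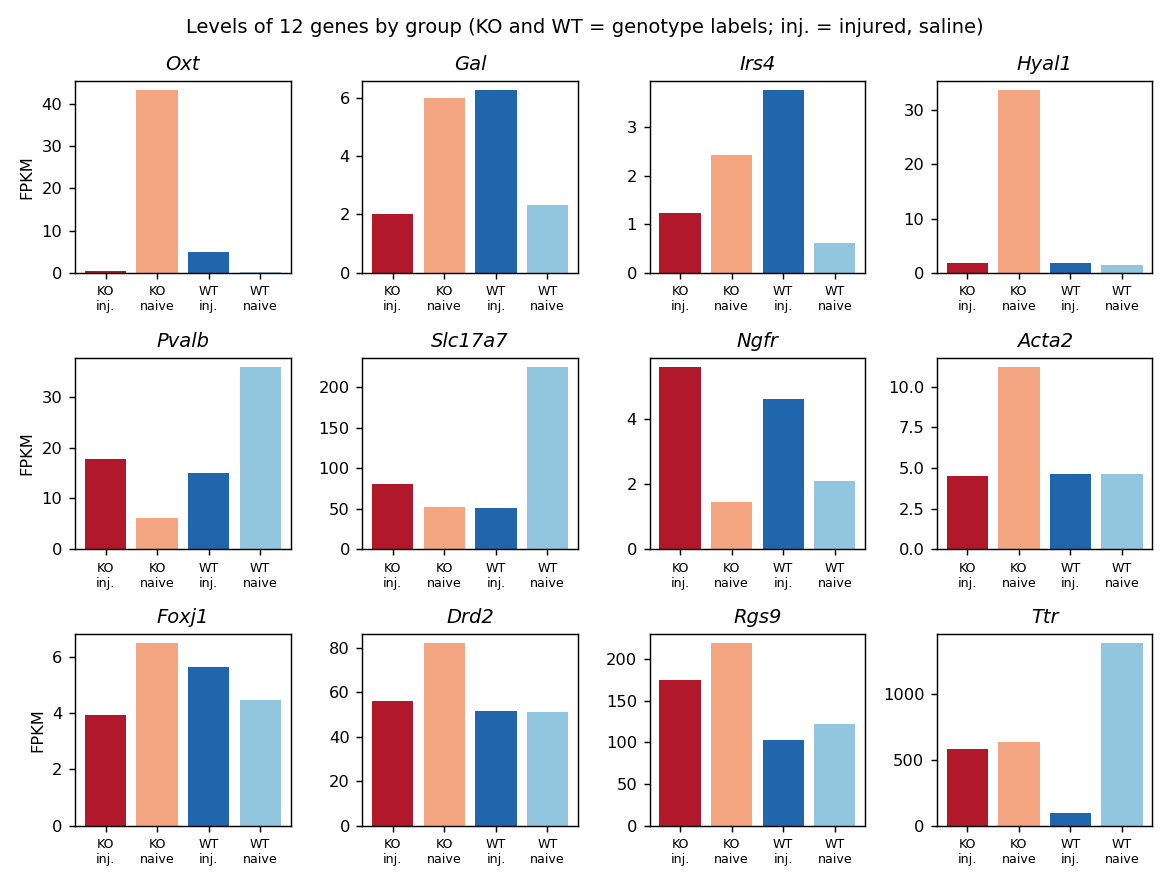
FPKM of 12 genes in injured, saline-treated and naive mice labelled knockout (KO) and in injured, saline-treated and naive mice labelled wild type (WT), 1 pooled value per bar, each genotype label from a table normalized on its own. Hyal1 and Oxt are high in the naive mice labelled knockout alone, at 33.7 and 43.3 FPKM, and Slc17a7, Pvalb and Ttr are highest in the naive mice labelled wild type.

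Calls in both responses were few. Of 13725 genes tested in both, 70 were called in mice labelled knockout (0.51%) and 159 in mice labelled wild type (1.16%), and 10 were called in both, 14.3% of the knockout calls and 6.29% of the wild-type calls. Only 4 of the 10 went the same way. Ngfr rose under both labels, at 5.62 FPKM injured and 1.45 naive in mice labelled knockout and 4.63 injured and 2.11 naive in mice labelled wild type. Prr7, Gm11942 and RP23-381B19.7.1 fell under both. Pvalb, Fezf2, Necab3, Slc30a3, Nov and Nrn1 rose in mice labelled knockout and fell in mice labelled wild type. The level minimum leaves Irs4 and Myoc out of this count, and both were called in opposite directions under the 2 labels. Irs4 fell in mice labelled knockout and rose in mice labelled wild type (3.77 FPKM injured, 0.618 naive). Myoc rose in mice labelled knockout and fell in mice labelled wild type (0.946 injured, 3.89 naive). Across the 13633 genes the 2 sets of log2 ratios had a correlation of 0.04, a description over genes that share libraries.

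**Figure D5:**
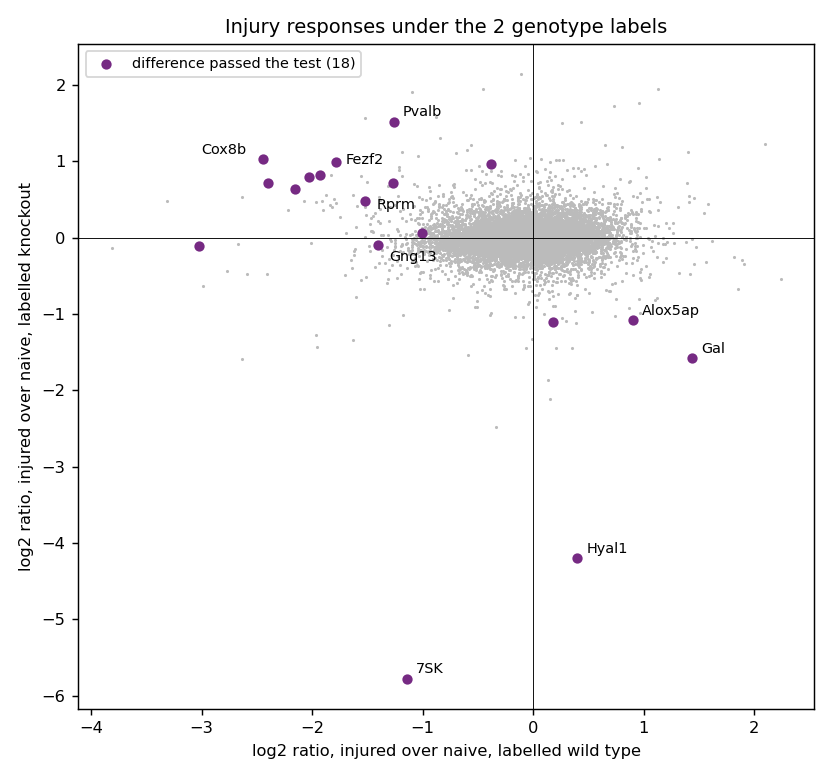
Log2 ratio of injured over naive in mice labelled knockout (vertical) against mice labelled wild type (horizontal) for 13633 genes, with the 18 genes whose difference passed the test in purple. Most purple points lie in the upper left, higher after injury in mice labelled knockout and lower in mice labelled wild type, and 7SK, Hyal1 and Gal lie lowest.

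For the 20 medium spiny neuron genes the list median was -0.39 in mice labelled knockout, with 20 negative ratios, and -0.01 in mice labelled wild type, with 11 negative and 9 positive. Drd2, of the indirect pathway list, was at 56.2 FPKM injured and 82.0 naive in mice labelled knockout, and at 51.6 injured and 51.1 naive in mice labelled wild type. Rasd2 was at 108 injured and 162 naive in mice labelled knockout, and at 95.6 injured and 82.1 naive in mice labelled wild type. The test of the difference was not passed by Drd2 or by any of the 20 with a recovered error under both labels. Ependymal genes had a median of -0.72 in mice labelled knockout and 0.17 in mice labelled wild type, with Foxj1 at 5.65 FPKM injured and 4.48 naive under the wild-type label, and 0 of them passed that test either.

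A further table sets desipramine against saline in injured mice labelled knockout. It shares the injured saline group with the comparison above, so no overlap or correlation between them is given, and its values stand beside the others only as levels, from a table normalized on its own. Oxt was at 14.8 FPKM with desipramine and 0.523 with saline in that table, and Hyal1 at 15.5 FPKM with desipramine and 1.86 with saline. Lars2 was at 182 FPKM with desipramine and 19.5 with saline, and 7SK at 39.0 with desipramine and 2.55 with saline. Each of these 4 genes was thus lower in the shared group than in the naive and desipramine groups labelled knockout. In injured and naive mice labelled wild type, Hyal1 was at 1.90 and 1.44 FPKM, Lars2 at 23.0 and 29.1, and 7SK at 2.08 and 4.58. For these 3 the shared group was near the levels labelled wild type, and the naive and desipramine groups labelled knockout lay above them. Gnrh1 (1.61 FPKM with desipramine, 7.07 with saline), Tnnt1 (1.56 with desipramine, 7.03 with saline), Pvalb (8.33 with desipramine, 18.0 with saline), Fos (4.99 with desipramine, 8.66 with saline) and Npas4 (3.81 with desipramine, 7.03 with saline) were higher with saline. In mice labelled wild type Gnrh1 was at 12.1 FPKM injured and 6.23 naive. Acta2 (10.2 with desipramine, 4.56 with saline) and Foxj1 (8.25 with desipramine, 3.99 with saline) were lower with saline. Other called genes were at closer levels in that table. Drd2 was at 60.5 FPKM with desipramine and 57.0 with saline, Scn4b at 114 with desipramine and 123 with saline, and Slc17a6 at 4.49 with desipramine and 4.15 with saline. All genes of this paragraph were chosen after their values were seen.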

How the data were processed

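Accumbens RNA was isolated in Trizol, cleaned on RNeasy Micro columns, and read on an Illumina HiSeq instrument from TruSeq libraries, per the labels' protocols. The submitters' processing notes name Cuffdiff 2.1.1, TopHat2 2.0.9, Bowtie2 2.1.0 and the genome builds NCBIM37 and mm9. The annotation is not given in the sources used here. Per the file headers each of the 7 tables deposited by the authors holds FPKM values, 1 per gene and group of 3 samples, normalized within a table. The log2 fold change that the authors deposited has the injured group on top. Its test statistic is a signed score from the authors' Cuffdiff, which also gave the deposited p-value and q-value.

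Log2 ratios were computed from the FPKM values without a pseudocount. A gene was called at a q of 0.05 or less. Standard errors were the deposited fold change over the test statistic, left out where they were not above 0, where fold change and FPKM ratio differed by over 0.01, or where a normal p of under 0.0001 met a deposited p of over 0.05. The difference between responses used both errors and a two-sided normal test, with Benjamini-Hochberg adjustment over all genes compared. The calculation was tested on simulated data that took the recovered errors as true, which cannot show whether those errors are right. Python 3.11.15, pandas 2.3.3, numpy 2.4.6, scipy 1.17.1 and matplotlib 3.10.9 were used. The table positions start from 0 and are printed from 1. Since the files hold no value per sample, limma, the choice for such values, had no use here, and depth is unknown.

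Members and gene lists were chosen with earlier results of these data known. Of 761 listed symbols 752 were found. Genes named by rule were Rgs9, the 15 highest and 15 lowest calls, up to 6 called members per list (3 where none was called), 8 per side of the difference, up to 10 calls under the level minimum and the 5 highest levels. The naming of further genes followed sight of their values, and not all named by rule are printed, 1 of which is not reported here. The alternatives changed the q and FPKM thresholds, the pseudocount, the centring, the source of p and the errors.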

Additional observations from a re-analysis of the deposited data

Results flagged for a closer look

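The 18 genes whose injury response differed between mice labelled knockout and mice labelled wild type are given here with the difference of their log2 ratios, knockout minus wild type, its standard error and the adjusted p of a two-sided normal test over 13633 genes. All of the wild-type ratios rest on the naive group labelled wild type, which stood apart from the other groups, and its part in the differences was not tested.

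The largest differences toward a more negative ratio in mice labelled knockout were those of 7SK (-4.64 ± 0.36, adjusted p = 6.17e-34) and Hyal1 (-4.60 ± 1.07, 0.0183). Gal, the galanin gene, followed with -3.02 ± 0.66 (adjusted p = 0.0111). Alox5ap, which encodes a partner of 5-lipoxygenase, differed by -1.98 ± 0.15 (adjusted p = 1.17e-36), with 28.01 FPKM injured and 59.1 naive in mice labelled knockout and 54.2 injured and 29.0 naive in mice labelled wild type. Cuffdiff did not call it in mice labelled knockout (q = 0.109 in the authors' deposited table). The small Cajal body RNA Scarna13 differed by -1.27 ± 0.30 (adjusted p = 0.0254). Cuffdiff called it under neither label (deposited q = 0.626 labelled knockout, 0.999 labelled wild type).

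Toward a more positive ratio in mice labelled knockout, Cox8b, a muscle form of a cytochrome oxidase subunit, differed by 3.48 ± 0.48 (adjusted p = 1.28e-09), with 3.04 FPKM injured and 1.49 naive in mice labelled knockout and 1.59 injured and 8.65 naive in mice labelled wild type. The cortical transcription factor genes Neurod6 (2.82 ± 0.66, adjusted p = 0.0183) and Fezf2 (2.78 ± 0.68, 0.0375), the vesicular transporter genes Slc17a7 (2.79 ± 0.69, 0.0375) and Slc30a3 (2.75 ± 0.66, 0.0275) and the interneuron gene Pvalb (2.78 ± 0.62, 0.0111) differed by similar amounts. Rprm, a cell cycle gene, differed by 1.99 ± 0.45 (adjusted p = 0.0129), and Gng13, a G protein gamma subunit gene, by 1.31 ± 0.29 (0.0111). In mice labelled knockout Cuffdiff called neither, with log2 ratios of 0.48 for Rprm and -0.09 for Gng13. In mice labelled wild type both were called lower, with log2 ratios of -1.52 for Rprm and -1.40 for Gng13. Among predicted and less described genes were Gm11549 (3.12 ± 0.70, adjusted p = 0.0111), Gm13306 (1.99 ± 0.46, 0.0155), AC149222.1 (1.35 ± 0.31, 0.0183), 2010107E04Rik (1.07 ± 0.21, 0.00154) and the ribosomal pseudogene Rpsa-ps10 (2.92 ± 0.48, 3.04e-06), which shares reads with its parent gene and is uncertain.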

How the results depend on the processing

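The 71 called genes, 43 higher and 28 lower, numbered 86 at a q of 0.10, 76 with a minimum of 0.5 FPKM and 79 with none. At a q of 0.01 or less 0 were called, 0 higher and 0 lower, since the lowest q was 0.0128 in the authors' deposited table, where 576 genes had an unadjusted p under 0.05. With a minimum of 5 FPKM 39 were called, 20 of them higher, list genes called numbered 12 in place of 28, and differences between responses 6 in place of 18. A normal p from the statistic called 28 higher genes, and on genes with a recovered error, an alternative chosen after seeing the data, 17 in all, 9 higher and 8 lower. With the larger error for both responses 5 differences passed. With a pseudocount of 1, 203 genes lay past 1.5-fold in place of 306, 109 of them higher in place of 166. None of 126 named genes changed direction under either pseudocount, centring or levels from the other tables. A pseudocount added to both groups cannot change a direction. Centring moved the log2 ratios by 0.0026 and the other tables by a median of 0.033. These settings could thus turn only ratios close to even and say little on how firm the directions are. With a normal p, 30 named genes lost their call and 4 gained one. No paired analysis was possible because each column pools the 3 samples of a group, and for the same reason no sample could be left out. Depth is unknown, which leaves the precision of low levels to the recovered errors.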
